A study of Mus musculus with 10 samples.

Results

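The transforming growth factor beta (TGF-beta) and bone morphogenetic protein (BMP) signalling genes form a group of 48 named ligands, receptors, extracellular antagonists, Smads and Id genes. All 48 were found by symbol among the 21792 genes listed in every mouse. They were read in kidney cortex from 2 groups of wild-type male C57BL/6 mice aged 8 weeks. The sham group (4 mice) received PBS, and the aristolochic acid nephropathy (AAN) group (6 mice) received 1 intraperitoneal injection of aristolochic acid, a plant nephrotoxin, at 5 mg/kg. Cortex was taken at day 28 and each mouse gave 1 paired-end RNA-seq library, so no mice were pooled. This is a toxin model in young male mice, and whole cortex mixes tubule, vessel, interstitial and immune cells.

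In TGF-beta signalling, a dimeric ligand released from a latent matrix-bound complex brings together a type II and a type I receptor kinase, which phosphorylate Smad2 and Smad3. BMPs use related receptors that act on Smad1, Smad5 and Smad9. Both branches share Smad4, and are held back by secreted ligand traps, by the inhibitory Smads Smad6 and Smad7, by Smurf ubiquitin ligases and by the corepressors Ski and Skil. In the kidney, TGF-beta is best known for driving matrix production in scarring, and Bmp7, made by tubule cells, for kidney development and for opposing TGF-beta.

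Levels are given in FPKM, fragments per kilobase of gene model per M mapped fragments, as the authors deposited them. Because FPKM is per length, levels of different genes can be set side by side. Fold changes are differences of log2(FPKM + 0.1) between AAN and sham mice with their standard error (SE), from limma with Benjamini-Hochberg adjustment over 17129 genes, those whose mean reached 0.1 FPKM. A gene is called higher or lower where the adjusted p is at most 0.05 and the fold change at least 2. The groups differed as a whole. The median log2 fold change of all genes tested was 0.75, and 82.3% of genes lay above 0. The summed FPKM was 39.5% to 61.4% mitochondrial in the sham group and 21.4% to 55.0% in the AAN group. Fold changes were therefore also taken after each mouse was rescaled by the median of ratios, which brought the median of all genes to 0.06. The recovered depth was 15.8 to 17.4 M fragments for the sham libraries and 13.3 to 16.5 M for the AAN libraries.

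Of the 48 members, 47 passed the filter on low values, and 23 of these were called higher in AAN mice and 0 lower. Bmp3, Bmper, Fst and Grem1 had sham means under 0.1 FPKM and passed the filter only through their AAN values. The same filter was applied to all genes. The share of members called higher was 48.9%, where 35.8% of all genes tested were called higher and 3.43% lower. After rescaling, 13 members were higher (27.7%, against 19.1% of all genes) and 3 were lower (6.38%, against 10.5%). The members' median log2 fold change was 1.0 as deposited and 0.35 rescaled. At an adjusted p of at most 0.05 with no fold limit, limma found 33 members higher, where 55.4% of all genes were, and 1 lower, where 6.00% were. Every AAN mouse was above every sham mouse in 23 members, a pattern seen in 40.3% of all genes tested, and below every sham mouse in 1 member, a pattern seen in 3.25%. The counts thus lay above the background as deposited and rescaled for higher calls, and this excess was not tested. The shares of 35.8% as deposited and 19.1% rescaled are the background for every count by role or list below. None of those counts was tested against them.

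**Figure D1:**
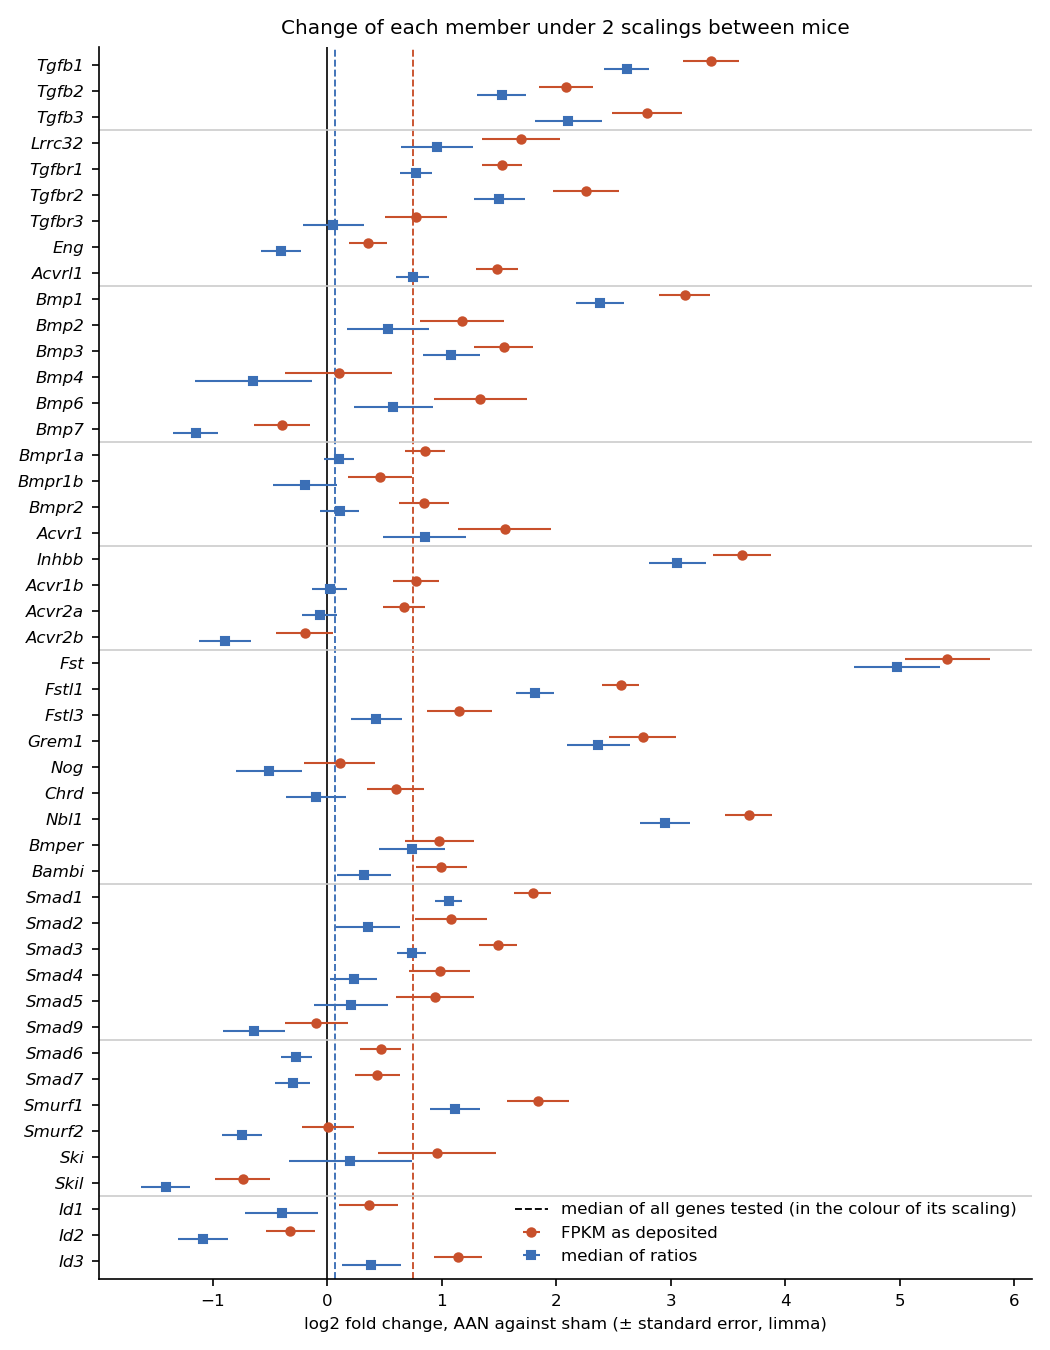
Log2 fold change (AAN minus sham, x axis, no unit) of the 47 members tested, grouped by role on the y axis, with the fold change as deposited and after the median of ratios and its standard error. The 3 TGF-beta ligands, Bmp1, Inhbb, Fst, Fstl1 and Nbl1 lie above 1 on both scales, while Bmp7, Skil and Id2 lie below 0 on both.

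The 8 members that passed both limits in every alternative that was run were the ligands Tgfb1, Tgfb3 and Inhbb, the receptor Tgfbr2, the protease Bmp1 and the ligand binders Fst, Fstl1 and Nbl1. They do not lie together in the genome (GRCm38, GENCODE M21). Tgfb1 is at chr7:25687002-25705077 on the plus strand, Tgfb3 at chr12:86056745-86079041 on the minus strand, and Inhbb at chr1:119415465-119422248 on the minus strand. Tgfbr2 is at chr9:116084293-116175360 on the minus strand and Bmp1 at chr14:70474558-70520234 on the minus strand. Fst is at chr13:114452290-114458951 on the minus strand, Fstl1 at chr16:37776873-37836514 on the plus strand, and Nbl1 at chr4:139082284-139092993 on the minus strand. The 8 genes thus lie on 8 different chromosomes. All are protein-coding, and values refer to whole gene models.

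RefSeq promoters on GRCm38.p6, each 250 bases before to 50 bases after the gene's start, were at hand for 32 of the 48 members, 5 of these 8 among them. A ligand (Tgfb1, chr7:25686752-25687051, plus strand), a receptor (Tgfbr2, chr9:116175314-116175613, minus strand) and a ligand trap (Nbl1, chr4:139092921-139093220, minus strand) are shown, 1 for each of 3 steps outside the cell. These 3 members were higher in every AAN mouse than in any sham mouse. Inhbb and Fstl1, of the same 5, were so too and are not shown. They are written 5′ to 3′, with capitals on matches to CAGAC (a core Smad-binding sequence) and GGCGCC (a GC-rich Smad site), searched on both strands.
Tgfb1: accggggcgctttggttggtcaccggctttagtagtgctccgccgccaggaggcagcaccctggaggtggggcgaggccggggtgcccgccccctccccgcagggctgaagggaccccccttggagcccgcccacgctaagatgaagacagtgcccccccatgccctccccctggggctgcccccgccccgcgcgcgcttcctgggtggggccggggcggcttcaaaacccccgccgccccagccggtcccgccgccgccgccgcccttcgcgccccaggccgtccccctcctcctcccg
Tgfbr2: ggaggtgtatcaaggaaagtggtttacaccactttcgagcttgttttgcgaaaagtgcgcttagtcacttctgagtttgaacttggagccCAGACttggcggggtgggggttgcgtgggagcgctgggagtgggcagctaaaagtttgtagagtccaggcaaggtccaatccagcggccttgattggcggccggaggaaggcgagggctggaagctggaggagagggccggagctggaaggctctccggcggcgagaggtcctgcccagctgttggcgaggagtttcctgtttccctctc
Nbl1: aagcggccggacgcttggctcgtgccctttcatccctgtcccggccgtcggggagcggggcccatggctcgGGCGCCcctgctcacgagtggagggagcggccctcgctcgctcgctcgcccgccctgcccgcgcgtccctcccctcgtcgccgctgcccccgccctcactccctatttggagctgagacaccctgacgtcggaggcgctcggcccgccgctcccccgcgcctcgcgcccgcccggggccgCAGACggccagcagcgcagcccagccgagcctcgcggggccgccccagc
The Tgfb1 window held neither sequence and was 77% G and C. The windows of Inhbb and Fstl1, not shown, also held neither. Tgfbr2 (59% G and C) held 1 CAGAC, at position -160 from the start, and Nbl1 (78.3% G and C) held 1 GGCGCC, at position -179, and 1 CAGAC, at position 1. CAGAC was found in 14 of the 32 member promoters (43.8%) and in 49.6% of 32851 promoters in the table. GGCGCC was found in 12 of the 32 (37.5%) and in 11.9% of all. The AP-1 sequence TGANTCA was found in 0 of the 32 and in 7.81% of all. Each member was counted by 1 promoter, while the share of all was taken over every promoter, whatever its gene. These shares describe letters in a window and depend on base composition.

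All 3 TGF-beta ligands were called higher on both scales. Tgfb1, the main isoform in scarring kidney, measured 1.98, 1.09, 1.49 and 1.77 FPKM in the 4 sham mice, and 10.6 (lowest), 17.2 (median) and 22.8 FPKM (highest) in the AAN mice. The groups were far apart, with an 11-fold ratio of means and a log2 fold change of 3.35 (SE 0.25, adjusted p = 5.85e-07), or 2.62 rescaled. Tgfb3 was at 0.388, 0.429, 0.503 and 0.789 FPKM in sham mice and at 2.11, 4.53 and 6.45 FPKM (lowest, median and highest) in AAN mice. Its log2 fold change was 2.79 (SE 0.31, adjusted p = 1.20e-05), or 2.10 rescaled. Tgfb2 had the lowest level of the TGF-beta ligands, 0.151, 0.0972, 0.214 and 0.154 FPKM in sham mice and 0.743, 0.934 and 1.46 FPKM in AAN mice. Here the log2 fold change was 2.08 (SE 0.23, adjusted p = 1.29e-05), or 1.52 rescaled, and a pseudocount of 1 brought it to 0.77, under the 2-fold limit. The order Tgfb1, Tgfb3, Tgfb2 held in every mouse of both groups. Tgfb2 and Tgfb3 overlap other listed genes, and the strand setting of the counting is not given in the sources used here.

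Among the TGF-beta receptors and docking proteins, 4 of 6 were called higher, and 1 of them, Tgfbr2, also after rescaling. The rescaled count is no excess over the 19.1% of all genes called higher. Tgfbr2, the type II receptor that binds the ligand first, was the receptor kinase with the highest mean in both groups, at 17.4, 6.96, 7.92 and 11.8 FPKM in sham mice and 31.3, 52.6 and 67.1 FPKM in AAN mice. Every AAN mouse exceeded every sham mouse, with a log2 fold change of 2.26 (SE 0.29, adjusted p = 3.91e-05), or 1.5 rescaled. Tgfbr1, the type I receptor kinase, measured 4.58, 3.26, 3.09 and 4.10 FPKM in sham mice and 8.5, 11.6 and 12.5 FPKM in AAN mice. The change of Tgfbr1 was 1.53 (SE 0.17, adjusted p = 1.57e-05) and 0.77 rescaled, so its call did not outlast the rescaling. Lrrc32, which docks latent TGF-beta on the cell surface, was at 1.19, 1.29, 1.32 and 1.65 FPKM in sham mice and 1.91, 5.47 and 7.95 FPKM in AAN mice, a change of 1.69 (SE 0.34, adjusted p = 0.00117), or 0.96 rescaled. Acvrl1, a type I receptor best known in endothelium, was at 2.24, 1.41, 2.23 and 1.68 FPKM in sham mice and 4.59, 5.23 and 6.81 FPKM in AAN mice, a change of 1.48 (SE 0.18, adjusted p = 2.81e-05), or 0.74 rescaled. The co-receptors did not pass both limits. Tgfbr3 (betaglycan) was at 2.34, 1.45, 1.15 and 1.18 FPKM in sham mice and 2.08, 2.37 and 4.89 FPKM in AAN mice, with overlap and a change of 0.78 (SE 0.27, adjusted p = 0.0258). The highest of these AAN values, in mouse B614, stood apart from the other AAN mice. Eng (endoglin), an endothelial co-receptor, had means of 14.8 ± 1.5 FPKM (sham, SD, n = 4) and 19.1 ± 3.21 FPKM (AAN, SD, n = 6), and its change of 0.36 (SE 0.17) turned to -0.40 after rescaling.

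**Figure D2:**
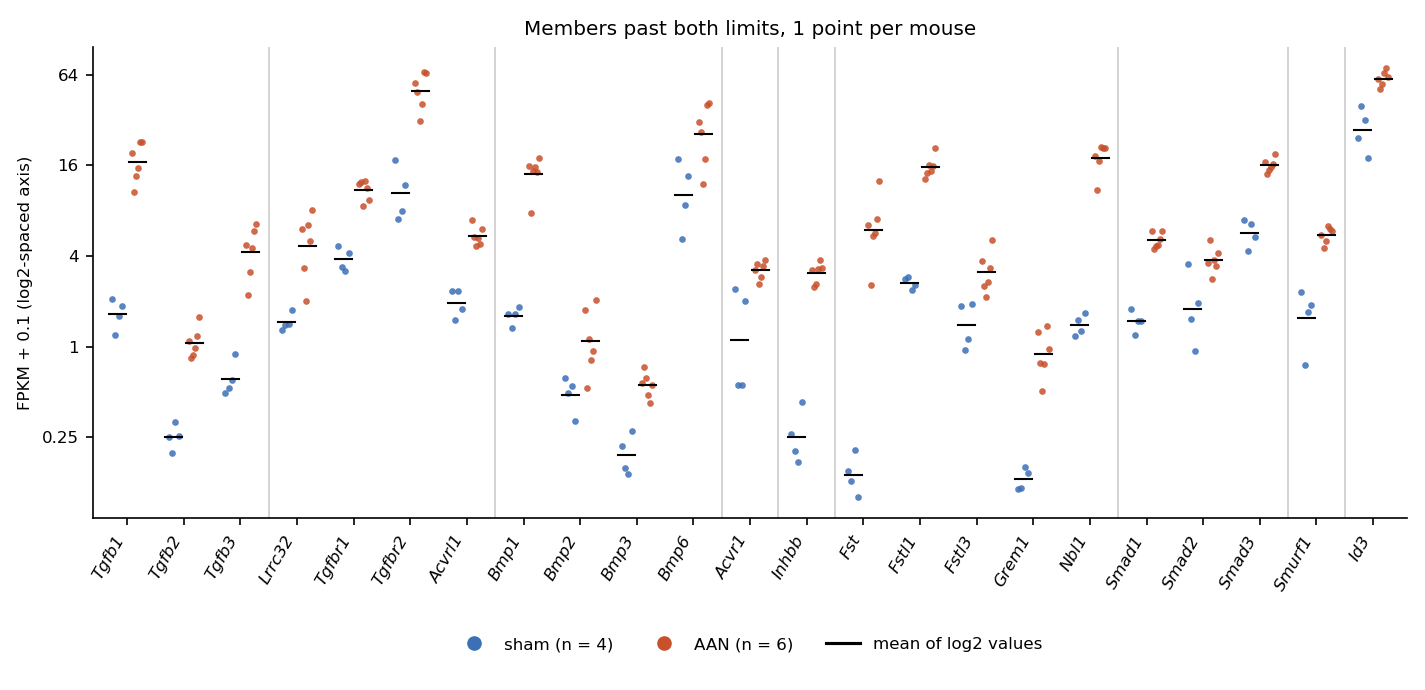
FPKM of each mouse (log axis) for the members called higher in AAN, with sham and AAN mice as separate points. In 20 of the 23 members every AAN mouse lies above every sham mouse, and the exceptions are Bmp2, Bmp6 and Smad2.

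The BMP ligands were split. Bmp1, which despite its name is a metalloprotease that trims procollagens and frees BMPs from chordin, measured 1.54, 1.23, 1.55 and 1.74 FPKM in sham mice and 7.61, 15.1 and 18 FPKM in AAN mice. The lowest AAN value, in B614, stood apart from the others and was still above every sham value. Its log2 fold change was 3.12 (SE 0.23, adjusted p = 5.50e-07), or 2.38 rescaled. Bmp3, an atypical BMP that opposes the others, was at 0.117, 0.0561, 0.0432 and 0.173 FPKM in sham mice and 0.321, 0.467 and 0.629 FPKM in AAN mice, a change of 1.54 (SE 0.26, adjusted p = 0.000295), or 1.08 rescaled and 0.41 with a pseudocount of 1. Bmp6, known for its part in iron balance, had means of 11.2 ± 5.47 and 28.2 ± 12.0 FPKM, and Bmp2, an osteogenic ligand, 0.393 ± 0.125 and 1.10 ± 0.584 FPKM (SD, sham n = 4 and AAN n = 6). Both were called higher with overlapping groups, at 1.34 (SE 0.41, adjusted p = 0.0137) and 1.18 (SE 0.37, adjusted p = 0.0151), and neither passed after rescaling (0.58 and 0.53). The call of Bmp6 was lost without sham mouse B634, where the log2 fold change of Bmp6 was 1.01 (adjusted p = 0.0527), and that of Bmp2 without sham mouse H249 (0.99) or AAN mouse B666 (0.99).

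Bmp7 and Bmp4 did not share in the increase. Bmp7 was at 12.0, 6.58, 9.03 and 11.5 FPKM in sham mice and 4.94, 7.31 and 11.8 FPKM in AAN mice, so the groups overlapped. The log2 fold change of Bmp7 was -0.40 (SE 0.25, adjusted p = 0.181) as deposited, and -1.15 after rescaling (adjusted p = 0.000580), where it was called lower. In the fit as deposited, 9.63% of all genes tested had a fold change below that of Bmp7. Bmp4, a ligand of stromal cells in the developing kidney, had means of 4.38 ± 1.07 and 5.59 ± 3.45 FPKM, and 2 AAN mice lay below every sham mouse while 3 lay above. Its change was 0.10 (SE 0.47, adjusted p = 0.864), or -0.65 rescaled (adjusted p = 0.329). Tubule markers lay beside the Bmp7 value. Of the proximal tubule markers 6 of 8 were called lower, with a median log2 fold change of -1.66 (-2.43 rescaled) and a summed level of 2529 to 4662 FPKM in sham mice and 755 to 2357 FPKM in AAN mice. The medians were -0.27 (-1.03 rescaled) for thick limb markers and -0.31 (-1.07 rescaled) for distal tubule and collecting duct markers. None of these markers was at 0 in all sham mice, and their part in the Bmp7 value was not tested. In bulk cortex, fewer cells of a type and less RNA per cell cannot be told apart.

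Of the BMP and activin receptors, 1 was called higher. Acvr1, a type I receptor for BMPs and activins, was at 2.31, 0.452, 0.453 and 1.90 FPKM in sham mice and 2.51, 3.23 and 3.65 FPKM in AAN mice. Sham mice varied widely, the groups nearly met, and the change of 1.55 (SE 0.41, adjusted p = 0.00601) fell to 0.85 rescaled (adjusted p = 0.0759). Bmpr1a (0.85, SE 0.18) and Bmpr2 (0.84, SE 0.22), the widely expressed type I and type II BMP receptors, passed the adjusted threshold but not 2-fold, and were at 0.10 and 0.11 rescaled, close to the median of all genes. Bmpr1b had a change of 0.46 (SE 0.28, adjusted p = 0.165), or -0.19 rescaled. The activin receptors Acvr1b (0.78, SE 0.20) and Acvr2a (0.67, SE 0.18) passed the adjusted threshold but not 2-fold, and were at 0.02 and -0.07 rescaled. Acvr2b, a second type II activin receptor, had means of 1.08 ± 0.141 and 0.969 ± 0.304 FPKM and a change of -0.20 (SE 0.25, adjusted p = 0.509), or -0.90 rescaled.

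**Figure D3:**
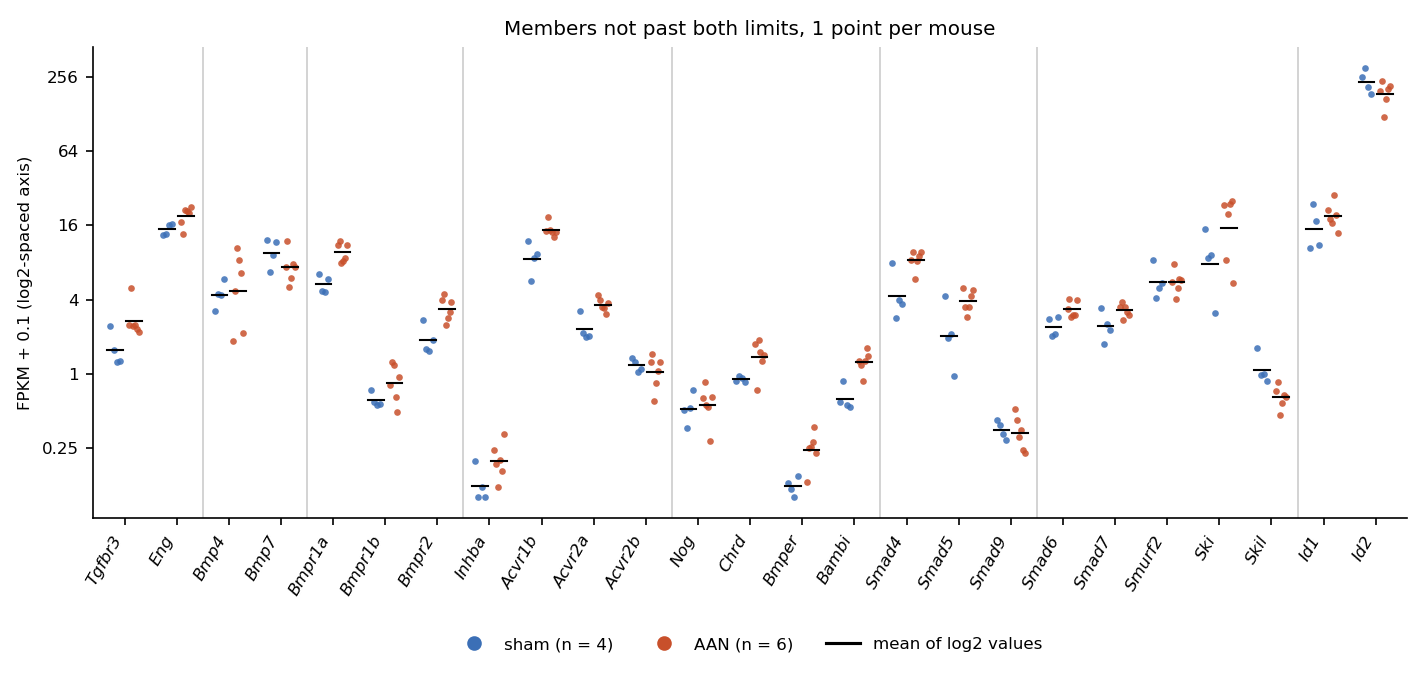
FPKM of each mouse (log axis) for the members not called, with sham and AAN mice as separate points. Skil is the 1 member in which every AAN mouse lies below every sham mouse, and in most of the others the groups overlap.

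The 2 activin subunits were at different levels. Inhbb, which forms activin B, measured 0.161, 0.104, 0.0714 and 0.328 FPKM in sham mice and 2.38, 3.13 and 3.69 FPKM in AAN mice. Each AAN mouse was well above each sham mouse, with an 18.2-fold ratio of means and a log2 fold change of 3.62 (SE 0.26, adjusted p = 4.57e-07), or 3.06 rescaled. Inhba, which forms activin A, was near the limit of detection, at 0.0957, 0, 0.0204 and 0 FPKM in sham mice and 0.0216, 0.0927 and 0.226 FPKM in AAN mice. It did not pass the filter. Its difference of 0.67 on the log2 scale (SE 0.30) had an exact two-sided permutation p = 0.0619 over the 210 splits of the mice. A value of 0 leaves room for an expected count of up to 3 fragments.

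Extracellular antagonists and binders gave the largest fold change among the members, and 5 of 9 were called higher, 4 of them also after rescaling. Fst (follistatin), which binds and neutralises activins, was at 0.0489, 0.0270, 0.104 and 0 FPKM in sham mice and 2.48, 5.95 and 12.6 FPKM in AAN mice. Its log2 fold change was 5.42 (SE 0.37, adjusted p = 3.77e-07), or 4.98 rescaled, and 99.6% of all genes tested had a smaller one. The sham mean of Fst stands for at most 3.42 fragments, so the size of the change rests on the pseudocount and was 2.74 with a pseudocount of 1 and 7.21 with 0.01. Nbl1 (also called DAN), a BMP antagonist, was at 1.08, 1.41, 1.17 and 1.59 FPKM in sham mice and 10.9, 19.6 and 21.1 FPKM in AAN mice, a change of 3.68 (SE 0.21, adjusted p = 1.56e-07), or 2.95 rescaled. Grem1 (gremlin 1), an antagonist of Bmp2, Bmp4 and Bmp7, was barely detected in sham mice, at 0.0138, 0.0152, 0.0586 and 0.0439 FPKM, and measured 0.404, 0.766 and 1.27 FPKM in AAN mice. The change of Grem1 was 2.76 (SE 0.29, adjusted p = 8.96e-06), or 2.37 rescaled, and 0.81 with a pseudocount of 1, where the call was lost.

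Fstl1, a secreted follistatin-like glycoprotein, had the smallest SE of the 9, with 2.71, 2.79, 2.28 and 2.46 FPKM in sham mice and 12.8, 15.3 and 20.7 FPKM in AAN mice. Its change was 2.56 (SE 0.16, adjusted p = 2.08e-07), or 1.81 rescaled. Fstl3, which binds activins and myostatin, was at 1.77, 0.855, 1.02 and 1.83 FPKM in sham mice and 2.04, 2.90 and 5.01 FPKM in AAN mice, a change of 1.15 (SE 0.28, adjusted p = 0.00411) that was lost after rescaling (0.43) and without sham mouse B634 (0.97). The BMP antagonists Nog (noggin) and Chrd (chordin), both known from embryonic patterning, were not called. Nog had means of 0.435 ± 0.158 and 0.486 ± 0.184 FPKM and a change of 0.11 (SE 0.31, adjusted p = 0.774), or -0.51 rescaled. Chrd had means of 0.803 ± 0.0460 and 1.32 ± 0.401 FPKM and a change of 0.60 (SE 0.25, adjusted p = 0.0542), or -0.10 rescaled. Bmper, a BMP-binding protein of endothelium, stayed at a low level (0.0237 and 0.152 FPKM) with a change of 0.98 (SE 0.30, adjusted p = 0.0145). Bambi, a decoy receptor without a kinase, had means of 0.539 ± 0.160 and 1.17 ± 0.241 FPKM and lay just under 2-fold at 1.0 (SE 0.22, adjusted p = 0.00220), or 0.32 rescaled. The members named here as BMP antagonists thus did not move as one. Nbl1 and Grem1 were called, and Nog and Chrd were not.

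Of the receptor-activated Smads and Smad4, 3 of 6 were called higher and 1, Smad1, also after rescaling, no excess over the 19.1% of all genes. Smad1, of the BMP branch, was at 1.67, 1.10, 1.39 and 1.39 FPKM in sham mice and 4.39, 4.85 and 5.81 FPKM in AAN mice, a change of 1.79 (SE 0.16, adjusted p = 2.52e-06), or 1.06 rescaled. Smad3, of the TGF-beta branch, was the most abundant Smad in AAN mice, at 6.89, 4.25, 6.44 and 5.25 FPKM in sham mice and 14.0, 15.9 and 19.1 FPKM in AAN mice. The change of Smad3 was 1.49 (SE 0.17, adjusted p = 1.29e-05), or 0.74 rescaled. Smad2 had means of 1.89 ± 1.12 and 3.72 ± 0.779 FPKM with overlap, and its change of 1.08 (SE 0.31, adjusted p = 0.0107) was lost after rescaling (0.35), without sham mouse B636 (0.77) and without AAN mouse B614 (0.99). Smad4, the shared partner, was at 0.98 (SE 0.26, adjusted p = 0.00687) and Smad5 at 0.94 (SE 0.34, adjusted p = 0.0301), both just under 2-fold and past it without sham mouse B607 (1.28 and 1.30). Smad9, a further Smad of the BMP branch, was at 0.255 ± 0.0567 and 0.243 ± 0.112 FPKM, with a change of -0.10 (SE 0.28, adjusted p = 0.775).

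Of the 6 inhibitory Smads, ubiquitin ligases and corepressors, 1 was called higher. Smurf1, a ubiquitin ligase that targets Smads and receptors, was at 2.22, 0.660, 1.60 and 1.78 FPKM in sham mice and 4.43, 5.59 and 6.22 FPKM in AAN mice, a change of 1.84 (SE 0.27, adjusted p = 0.000127), or 1.11 rescaled. Its relative Smurf2 had nearly equal means of 5.64 ± 1.89 and 5.56 ± 1.22 FPKM and a change of 0.01 (SE 0.23, adjusted p = 0.983), which was -0.74 rescaled. The inhibitory Smad7, itself a textbook target of TGF-beta, was at 3.31, 1.63, 2.45 and 2.17 FPKM in sham mice and 2.65, 3.22 and 3.74 FPKM in AAN mice, with overlap and a change of 0.44 (SE 0.20, adjusted p = 0.0720), or -0.30 rescaled. Smad6, its counterpart in the BMP branch, was at 2.66, 1.93, 2.0 and 2.79 FPKM in sham mice and 2.76, 3.07 and 3.92 FPKM in AAN mice, a change of 0.47 (SE 0.18, adjusted p = 0.0379), or -0.27 rescaled. Skil (SnoN), a corepressor that binds Smads in the nucleus, was lower in all 6 AAN mice, at 1.52, 0.873, 0.899 and 0.769 FPKM in sham mice and 0.365, 0.564 and 0.765 FPKM in AAN mice. Its change was -0.74 (SE 0.24, adjusted p = 0.0187), short of 2-fold, and -1.41 rescaled (adjusted p = 0.000207), where it was called lower. The related corepressor Ski had means of 8.92 ± 4.85 and 17.5 ± 8.51 FPKM with a wide spread in both groups and a change of 0.96 (SE 0.51, adjusted p = 0.123).

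The Id genes encode inhibitors of helix-loop-helix factors and are known as direct BMP targets. Id3 was at 24.2, 39.7, 32.0 and 17.9 FPKM in sham mice and 51.4, 60.7 and 70.6 FPKM in AAN mice, without overlap. Its change was 1.14 (SE 0.21, adjusted p = 0.000627), or 0.38 rescaled, and 0.94 without sham mouse H249. Id1 was at 10.5, 23.9, 17.2 and 10.9 FPKM in sham mice and 13.8, 18.6 and 27.9 FPKM in AAN mice, a change of 0.36 (SE 0.26, adjusted p = 0.243), or -0.40 rescaled. Id2, the most abundant member of all 48, was at 257, 299.9, 210.1 and 185 FPKM in sham mice and 121, 201 and 237 FPKM in AAN mice. The change of Id2 was -0.32 (SE 0.22, adjusted p = 0.209) as deposited and -1.09 rescaled (adjusted p = 0.00182), where it was called lower. The 3 Id genes thus gave 3 different values on the same scale, and a test of the Id2 and Id1 values against each other is given next.

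Differences between a pair of members within a mouse do not depend on a factor that multiplies all values of that mouse, apart from the pseudocount. For 8 pairs the difference of log2(FPKM + 0.1) was compared between the groups by exact permutation, two-sided, over 210 splits (smallest p 0.00476), and p was adjusted over the 8 pairs. The values of Tgfb1 relative to Bmp7 lay between -2.63 and -2.48 in sham mice and between -0.15 and 1.63 in AAN mice. The shift was 3.75 (SE 0.28, exact permutation p = 0.00476, adjusted p = 0.00635), and Bmp7 exceeded Tgfb1 in 4 of 4 sham mice and in 1 of 6 AAN mice (B614). Grem1 relative to Bmp7 shifted by 3.15 (SE 0.31, exact permutation p = 0.00476, adjusted p = 0.00635), from a sham median of -6.10 to an AAN median of -2.96. Fst relative to Inhba shifted by 4.75 (SE 0.36, adjusted p = 0.00635 by the same permutation test). Fst alone separated the groups, at most 0.104 FPKM in sham and at least 2.48 FPKM in AAN mice, while Inhba stayed between 0 and 0.226 FPKM. That pair thus restates the change of Fst and does not test Inhba. Tgfb1, Grem1, Tgfbr2, Smad3 and Smad1 also separated the groups on their own. Their partners Bmp7, Tgfbr3, Smad7 and Smad6, in the pairs above and below, overlapped between the groups. Those pairs likewise do not test these partners on their own. The sizes of shifts that involve low genes rest on the pseudocount. With pseudocounts of 1 and 0.01, Fst minus Inhba shifted by 2.64 and 5.17, and Grem1 minus Bmp7 by 1.17 and 4.76. Tgfb2 fell behind Tgfb1 by a shift of -1.27 (SE 0.18, adjusted p = 0.00635 by permutation, -2.02 and -0.81 with those pseudocounts), and Tgfbr3 behind Tgfbr2 by -1.49 (SE 0.34, adjusted p = 0.0109 by permutation).

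For each inhibitory Smad, 1 Smad of its branch was compared, and it was the one with the largest log2 fold change in that branch. Smad3 was at 1.49 and Smad2 at 1.08, while Smad1 was at 1.79, Smad5 at 0.94 and Smad9 at -0.10. The shifts below thus depend on the partner, and the other Smads were not compared. Smad7 relative to Smad3 lay between -1.36 and -1.03 in sham mice and between -2.68 and -1.87 in AAN mice, a shift of -1.06 (SE 0.13, adjusted p = 0.00635 by permutation). Smad6 relative to Smad1 lay between 0.49 and 0.96 in sham mice and between -0.80 and -0.16 in AAN mice, a shift of -1.33 (SE 0.14, adjusted p = 0.00635 by permutation). In every sham mouse Smad6 thus exceeded Smad1, and in every AAN mouse it was below it. Id2 relative to Id1 overlapped between the groups, with a shift of -0.68 (SE 0.31, permutation p = 0.0714), and passed the threshold without AAN mouse B666 (-0.82, adjusted p = 0.0397 by permutation).

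**Figure D4:**
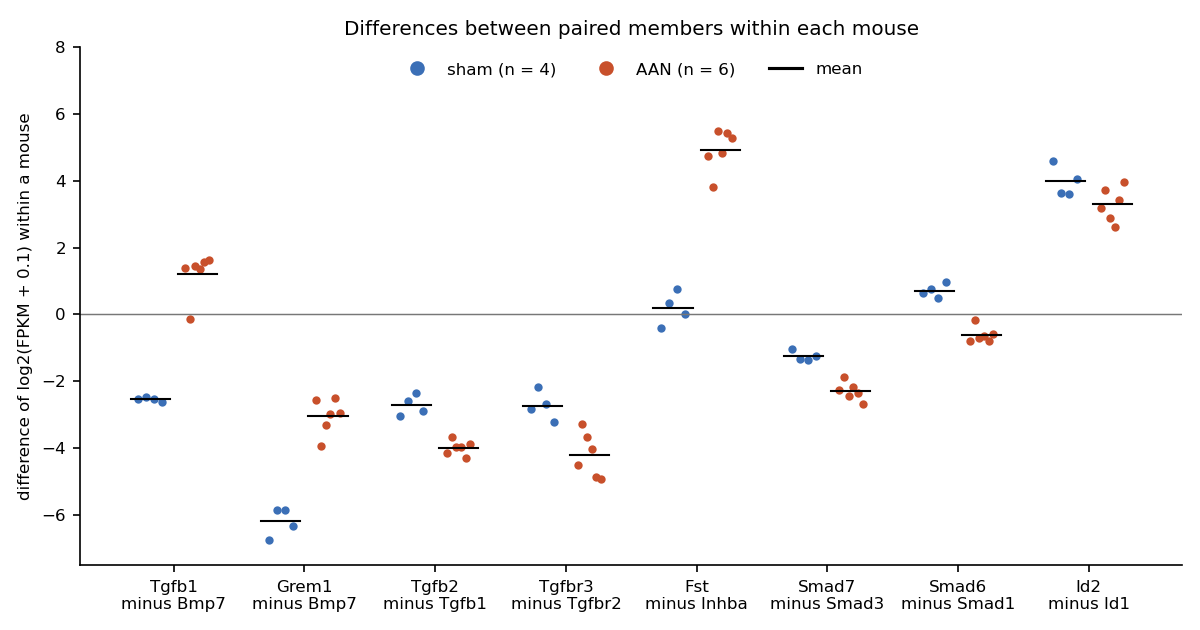
Difference of log2(FPKM + 0.1) between 2 members within each mouse (y axis) for the 8 pairs, with sham and AAN mice as separate points. The groups do not overlap in 7 pairs, and overlap for Id2 minus Id1.

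Other genes of the pathway were read from 7 lists. Latent complex and activation genes had 10 of 16 tested called higher and 0 lower, 9 of them higher after rescaling. Ltbp2, a latent TGF-beta binding protein of the matrix, was at 0.0419, 0, 0.00892 and 0.0267 FPKM in sham mice and 3.09, 6.44 and 7.07 FPKM in AAN mice, a change of 5.62 (SE 0.25, adjusted p = 8.29e-08), or 2.73 and 7.86 with pseudocounts of 1 and 0.01. Mmp14, a membrane-bound matrix protease, went from a mean of 0.948 to 22 FPKM (4.37, SE 0.20, adjusted p = 1.01e-07). Nrros, which docks latent TGF-beta on macrophages and microglia, went from 0.320 to 5.65 FPKM (3.82, SE 0.37, adjusted p = 4.72e-06). Among other ligands of the superfamily, 17 were listed and 12 passed the filter. Of these 12, 8 were higher and 0 lower, among them Gdf3 (3.45, SE 0.34), the stress-induced Gdf15 (2.56, SE 0.31) and the inhibin alpha subunit Inha (2.39, SE 0.36). After rescaling 7 were higher and 0 lower, and after quantile normalization 5 higher and 2 lower. Gdf3, Gdf6, Gdf9 and Amh, all called higher, had sham means of 0.0234, 0, 0.0699 and 0.0455 FPKM. They passed the filter only through their AAN values, so the count of 8 leans on the filter. The sham mean of Gdf3 stands for at most 0.944 fragments, and its change was 1.16 with a pseudocount of 1, under that of Gdf15, and 5.45 with 0.01. Gdf15 had the highest level of these 3, at 2.69 and 17.1 FPKM, where Gdf3 reached 1.35 FPKM and Inha 2.91 FPKM in AAN mice.

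Other receptors and co-receptors had 2 of 4 tested called higher, Rgmb, a BMP co-receptor, at 1.26 (SE 0.35, adjusted p = 0.00790, or 0.53 rescaled, and 0.88 without sham mouse B634) and Cd109, a TGF-beta co-receptor, at 2.43 (SE 0.35, adjusted p = 0.000101). In the list of other antagonists and binders, 3 of 10 were higher and 1 lower, with a median of 0.43, and 2 were higher and 2 lower after rescaling, where the median turned to -0.29. This is no excess over the 35.8% of all genes called higher. The small proteoglycans Bgn (biglycan, 9.64 to 72.5 FPKM, 2.88) and Dcn (decorin, 7.08 to 50.2 FPKM, 2.78) and the BMP modulator Twsg1 (1.26, or 0.50 rescaled) were higher. Sost (sclerostin), a secreted cystine-knot protein best known as a Wnt inhibitor, was lower, at 0.999 and 0.0891 FPKM (-2.56, SE 0.27, adjusted p = 8.30e-06). Cd109 and Sost were named after their values were seen. Smad partners and regulators had 5 of 15 called higher with a median of 0.45, again no excess over 35.8%, and 3 higher and 1 lower with a median of -0.31 after rescaling. Those called included the corepressors Tgif2 (2.38, SE 0.33) and Tgif1 (1.91, SE 0.24) and by Usp11, a deubiquitinase (2.19, SE 0.22).

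The TGF-beta responsive list had 18 of 18 called higher as deposited and 15 of 18 after rescaling, with a median of 3.54 (2.79 rescaled). This list was chosen with earlier results of these data known and does not cover all targets. Smad7, a TGF-beta target given above among the members, is not on it and was not called (0.44, or -0.30 rescaled). Timp1, a metalloprotease inhibitor, was listed at 0 in 3 sham mice and at 0.351 FPKM in the other, and at 10.2, 62.4 and 86.0 FPKM in AAN mice (8.39, SE 0.60, adjusted p = 5.19e-07). The sham mean of Timp1 stands for at most 1.28 fragments, and its change was 5.54 and 10.96 with pseudocounts of 1 and 0.01. Ltbp2, given above, is also on this list. The BMP responsive list had 1 of 5 tested called higher, Id4, at 1.0 (SE 0.18, adjusted p = 0.000500), with a list median of 0.61, and 0 of 5 after rescaling. The difference between the 2 responsive lists was not tested. Of the TGF-beta responsive genes, Col1a1, Col3a1 and Acta2 are also fibroblast and mural markers, and Dcn of the binders is another.

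Markers of several cell types moved with these results. All 7 fibroblast and mural markers were called higher, with a summed level of 31.1 to 47.2 FPKM in sham mice and 129 to 315 FPKM in AAN mice. All 6 leukocyte markers (7.65 to 14.0 FPKM against 138 to 419 FPKM), all 6 macrophage markers (34.3 to 53.1 against 539 to 1846), all 5 T cell markers (0.775 to 2.42 against 58.9 to 164), all 3 tested B cell markers (0.673 to 1.27 against 3.79 to 9.48) and all 8 injured tubule markers (165 to 267 against 1247 to 3602) were higher too. No endothelial marker of 7 was called by limma in either direction (2 passed an adjusted p of 0.05), and 1, Kdr, named after its values were seen, was lower after rescaling (-1.02, adjusted p = 0.00736), at a sum of 31.3 to 54.5 FPKM in sham mice and 47.6 to 68.9 FPKM in AAN mice. Of the other nephron lists, 1 of 5 thick limb markers (484 to 1687 FPKM against 211 to 1958) and 1 of 6 distal tubule and collecting duct markers (246 to 603 against 160 to 807) were lower, and 1 of 5 podocyte markers (43.1 to 83.7 against 47.5 to 126) was higher. After rescaling, 3 of 5 thick limb and 2 of 6 distal tubule and collecting duct markers were lower and the podocyte marker (Synpo, also named after its values were seen) was no longer called (adjusted p = 0.275). Tubule and podocyte markers were thus present in both groups. None of the markers on these lists was at 0 in all sham mice. Their part in the values of Tgfb1, Tgfb3, Fst, Nbl1 and the other members was not tested.

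The AAN mice were not alike in these genes. Among the 23 members called higher, mouse B614 was the lowest AAN mouse in 12 and B630 in 9, while B666 was the highest in 12. B614 was the AAN mouse with the lowest value in Bmp1 and the highest in Tgfbr3. Without B614 the number of members called higher was 23, and without single mice it ranged from 22 to 27. Among sham mice, B634 was lowest in 11 of the 23, and without it 22 members were called higher. The mice with tags that begin with B (3 sham and 5 AAN), the one grouping the tags give, had 22 members called higher.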

How the data were processed

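Kidney cortex RNA of 10 mice (4 sham and 6 AAN, each library 1 mouse) was sequenced at day 28 from paired-end TruSeq libraries on the HiSeq Xten. The authors filtered the reads (rRNA, adapter, short and low-quality sequence), mapped them with HISAT2 to GRCm38.p4 and computed FPKM with StringTie, and the deposited values are these FPKM for 21792 Ensembl genes in each mouse. The authors tested with edgeR, which needs counts, so limma was used here. The annotation release and the strand setting of the counting are not given in the sources used here. Members that overlap another listed gene (Tgfb2, Tgfb3, Tgfbr3, Bmp4, Bmp6, Bmpr1a, Acvr2a, Fstl3, Chrd and Eng) are uncertain for that reason.

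Ensembl identifiers were joined to symbols, positions and exonic lengths of GENCODE mouse release M21 (21665 of 21792 matched). Low FPKM in genes with 1 transcript were multiples of the value of 1 fragment (94.8% to 96.9% of values under 0.3 FPKM were whole within 0.05), which gave the depth of each library. Members with several transcripts have no whole counts, so only upper limits on fragments are given, covering counting error only.

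The fit was lmFit and eBayes with trend and robust in limma 3.58.1 (R 4.3.3) on log2(FPKM + 0.1), for the 17129 genes whose 10-mouse mean reached 0.1 FPKM, two-sided, with Benjamini-Hochberg adjustment. A fold change on this scale understates the change of low genes. A call needed an adjusted p no higher than 0.05 and a 2-fold difference. Single differences used an exact two-sided permutation test over 210 splits (scipy 1.17.1, Python 3.11.15, numpy 2.4.6, pandas 2.3.3). Figures were drawn with matplotlib 3.10.9. Groups came from the sample labels, age and sex from the methods. The labels tie each library to a mouse by a tag, and no batch is given.

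The members and the lists (7 pathway, 11 marker) were chosen with earlier results of these data known. Named from each pathway list were the 3 genes with the largest change among those past both limits whose mean in the higher group reached 1 FPKM. Of the genes this rule picks, 1 is not reported here. All members are named. For those called without overlap and those in pairs, the value of every sham mouse is given. Where 3 FPKM values are given for AAN mice, they are the lowest, the median and the highest, not single mice in order. Bmp10, Gdf1, Gdf2, Gdf7, Mstn, Lefty2, Cer1, Fstl4, Fstl5 and Dlx5 of the lists were not found by symbol among the genes listed. Other list genes were found but fell under the filter and were not tested, among them Plg, Bmp5, Nodal, Acvr1c, Amhr2, Chrdl1 and Msx2.

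Simulated data were used to test the fit for the sham against AAN comparison, with 17129 genes simulated and 15186 tested. Of the genes tested, 175 carried a set change, up or down, and a call there needed only the adjusted p, with no fold limit. The fit found 84.8% of 4-fold and 36.5% of 2-fold changes with 5 false calls. The simulation held no shift of most genes like that between the real groups, so these shares do not carry over to the real calls. Alternatives were a pseudocount of 1 or 0.01, dropping the low-value filter or raising it to 1 FPKM, the median of ratios, quantile normalization, the same FPKM total without mitochondrial genes, eBayes without trend or robust, omitting the fold limit, omitting single mice, and keeping B-tagged mice alone.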

Additional observations from a re-analysis of the deposited data

Results flagged for a closer look

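In 6 of 96 groups of values (48 members in 2 groups of mice), 1 mouse stood apart from the others of its group by Dixon's test at the 95% level, where chance gives about 4.8. AAN mouse B614 accounts for 3 of them. Tgfbr3 was at 4.89 FPKM in B614 and at 2.08 to 2.39 FPKM in the other AAN mice. Bmp1 was at 7.61 FPKM in B614, against 14.5 to 18 FPKM. Acvr1b was at 18.5 FPKM in B614, against 12.8 to 14.7 FPKM. Sham mouse B607 stood apart in Bmpr1b, at 0.642 FPKM against 0.455 to 0.485 FPKM, and in Acvr2a, at 3.12 FPKM against 1.89 to 2.02 FPKM. Sham mouse B634 was at 0.776 FPKM for Bambi, against 0.433 to 0.487 FPKM. Of these 6 genes, Bmp1 was called with and without B614, and Bambi passed the 2-fold limit without B634, where the log2 fold change of Bambi was 1.16 (adjusted p = 0.00123 by limma). No cause was tested.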

How the results depend on the processing

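As deposited, 6126 genes were higher and 588 lower (91.2% of calls higher), against 3266 and 1802 under the median of ratios (64.4% higher) and 2232 and 2157 under quantile normalization. The count of genes higher in AAN became 2909 at a pseudocount of 1, 4025 where the filter was raised to 1 FPKM and fewer genes were tested, and 9482 when no fold limit was set (genes lower in AAN 1027). Members higher were 23 as deposited, 13 by the median of ratios, 9 by quantile and 22 to 27 without single mice. Members lower were 0, 3, 5 and 0 in the same order, and 1 without a fold limit. The median of all genes moved from 0.75 to 0.06 and -0.13 under these scalings.

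The median of ratios turned the sign of Bmp4 (-0.65), Bmpr1b (-0.19), Acvr2a (-0.067), Nog (-0.51), Chrd (-0.10), Eng (-0.40), Smad6 (-0.27), Smad7 (-0.30), Smurf2 (-0.74) and Id1 (-0.40). Quantile normalization did so for the same 10 (Bmp4 -0.70, Bmpr1b -0.78, Acvr2a -0.24, Nog -1.17, Chrd -0.56, Eng -0.13, Smad6 -0.45, Smad7 -0.48, Smurf2 -0.75, Id1 -0.11) and for Tgfbr3 (-0.23), Bmp2 (-0.053), Bmpr2 (-0.11), Bmper (-0.26) and Bambi (-0.24). Without single mice, values near 0 changed sign, with Bmp4 at -0.13 to 0.37, Nog at -0.066 to 0.30, Smad9 at -0.23 to 0.013 and Smurf2 at -0.14 to 0.21. The log2 fold change of Smurf2 was -0.0012 in the mice with B tags alone.

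Leaving out 1 mouse brought members past the limits, namely Bmpr2 without B607 (1.02), Bmper without B607, H249 or A483 (1.01, 1.07 and 1.15), Smad4 and Smad5 without B607 or B630, Bambi without B634, B614 or B630 (1.16, 1.01 and 1.10) and Ski without B666 (1.25, adjusted p = 0.0343). Id4 lost its call without B607, B636, A483, B630 or B666 (0.92 to 0.99). A pseudocount of 1 ended the calls of Tgfb2, Bmp2, Bmp3, Acvr1, Fstl3, Grem1, Smad2, Id4, Rgmb and Tgif2. Of the pairs, 7 kept direction and call, though not size, in every alternative that gave a value (Fst minus Inhba had none after quantile normalization, since Inhba was filtered out), and Id2 minus Id1 ranged from -0.82 to -0.48 without single mice, past the threshold without AAN mouse B666 (-0.82). The causes of these changes were not tested. No paired analysis was possible because the labels number no replicates, and the replicate numbers used here only name mice and do not pair a sham with an AAN mouse. Depth limits genes that stand at a few fragments in sham mice, among them Fst, Grem1, Inhba, Bmper, Ltbp2, Gdf3 and Timp1.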
